A study of Mus musculus with 2 samples.

Results

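The genes described here are Atf4 and 9 genes of the amino acid stress response that it drives, 10 of the 17024 genes analysed in the table. They were chosen by name, as the transcription factor itself, its stress targets and the enzymes of serine synthesis, and each of the 10 had a row. The choice was made with earlier results of these data known. RNA was sequenced from sorted GFP-positive lymphocytes of the small intestine of mice of the C57BL/6 strain, 6 to 8 weeks old; the study's design text names the lamina propria. The Th17 library held T cells of mice with a GFP knock-in at Il17a (the IL17A_IRES_GFP line), and the ILC3 library held group 3 innate lymphoid cells of mice with a GFP knock-in at Il23r (the IL23R_GFP line). Each group held 1 library, so reporter, mouse line and cell type cannot be told apart and no difference below has a replicate check. The number of animals pooled is not stated in the sources used here.

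ATF4 is a bZIP transcription factor whose translation increases when the initiation factor eIF2 is phosphorylated, by GCN2 during amino acid shortage, PERK during endoplasmic reticulum stress, PKR on sensing double-stranded RNA or HRI during heme shortage. It activates genes for amino acid uptake, for asparagine and serine synthesis and for tRNA charging, and, under prolonged stress, genes such as Ddit3 that slow or end the response. In activated T cells the same enzymes supply serine and folate-bound carbon units for nucleotide synthesis. Because ATF4 is controlled mainly in translation, the Atf4 transcript level and the levels of its target transcripts are separate readouts.

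ATF4 acts at C/EBP-ATF response elements, whose core TGATGNAA was searched on both strands of the 250 bases before each RefSeq start (build GRCm38.p6, another build than that of the reads). It was found in 2 of the 10 genes and in 3.91% of 27025 genes with a promoter sequence. The ER stress element, bound by ATF6, was found in 0 of the 10 and in 0.13% of all. Both promoters with a core are shown because Asns and Chac1 are textbook ATF4 targets, with the match in capitals.
Asns promoter (chr6:7693210-7693459, minus strand, GRCm38.p6): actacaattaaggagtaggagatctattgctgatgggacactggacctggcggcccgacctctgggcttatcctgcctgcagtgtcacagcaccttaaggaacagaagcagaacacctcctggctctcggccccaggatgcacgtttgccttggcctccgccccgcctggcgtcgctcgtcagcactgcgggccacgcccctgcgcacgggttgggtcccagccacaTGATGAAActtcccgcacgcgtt
Chac1 promoter (chr2:119350992-119351241, plus strand, GRCm38.p6): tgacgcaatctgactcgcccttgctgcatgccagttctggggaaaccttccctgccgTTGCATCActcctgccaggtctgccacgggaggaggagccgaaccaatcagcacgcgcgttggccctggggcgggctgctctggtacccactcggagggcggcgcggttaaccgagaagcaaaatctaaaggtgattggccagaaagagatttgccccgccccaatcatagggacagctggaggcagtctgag
In Asns the match TGATGAAA lay 23 to 16 bases before the start on the gene's own strand, and in Chac1 the match TTGCATCA, the core read on the other strand, lay 193 to 186 bases before it. A match is a description of the letters and not a binding site, and elements outside this window were not searched.

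Reads over the genes analysed totalled 17555055 in Th17 and 22509405 in ILC3. A difference was called large at 4-fold or more (log2 of normalized count + 1) where the higher library reached 100 normalized counts. Of the 13719 genes measured (a mean of at least 10 normalized counts), 668 had one higher in Th17 and 875 in ILC3. The labels were checked against markers. Il17a, the reporter gene of the Th17 sort, stood at 33614 normalized counts in Th17 against 953 in ILC3, and Il23r, that of the ILC3 sort, had 5435 and 9688. Of 10 T cell markers 9 had a large difference higher in Th17 (median log2 ratio 4.37), with Cd3e still at 651 in ILC3, and of 10 ILC3 markers 7 had one higher in ILC3 (median -2.95). Markers of other cell types were mostly higher in ILC3. Stroma and endothelium markers had 10 of 13 measured members higher in ILC3 by a large difference and 1, Vim, higher in Th17 (12 and 1 by any amount), with a median of -6.26 (-5.80 with genes at 0 set to the floor of 3 reads). Their summed level was 25877 in Th17, 23423 of it Vim, and 19019 in ILC3, with Cdh5 and Kdr, which mark endothelium, at 0 in Th17. B and plasma cell markers (4 of 7, median -2.55, summed level 6879 in Th17 and 15434 in ILC3), epithelium markers (5 of 10, median -2.87, 222 and 1299, with Krt20 at 0 in Th17) and macrophage and dendritic cell markers (3 of 13, median -0.19, 1522 and 2395) had the stated number with a large difference higher in ILC3 and 0 higher in Th17. Fewer cells of a type and less RNA per cell cannot be told apart in such libraries, and the part of these other cells in the levels below was not tested.

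The libraries also differed in how low read numbers were spread. The ILC3 library listed 2235 genes at 0 and 337 at 1 to 3 reads, against 714 and 2294 in Th17. After smoothing, the number of ILC3 genes was nearly flat between 6 and 14 reads, with the highest smoothed value shared by 7 and 10 reads. Ranges in brackets after a fold are exact 95% intervals from the reads of both libraries and cover counting error only. If reads in ILC3 were copies of fewer molecules, which was not tested, these intervals would be too narrow. For the 10 genes wider intervals were therefore also computed with ILC3 reads grouped by 7, the lower of the tied values, and by 10; those of other genes are from single reads only.

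**Figure D1:**
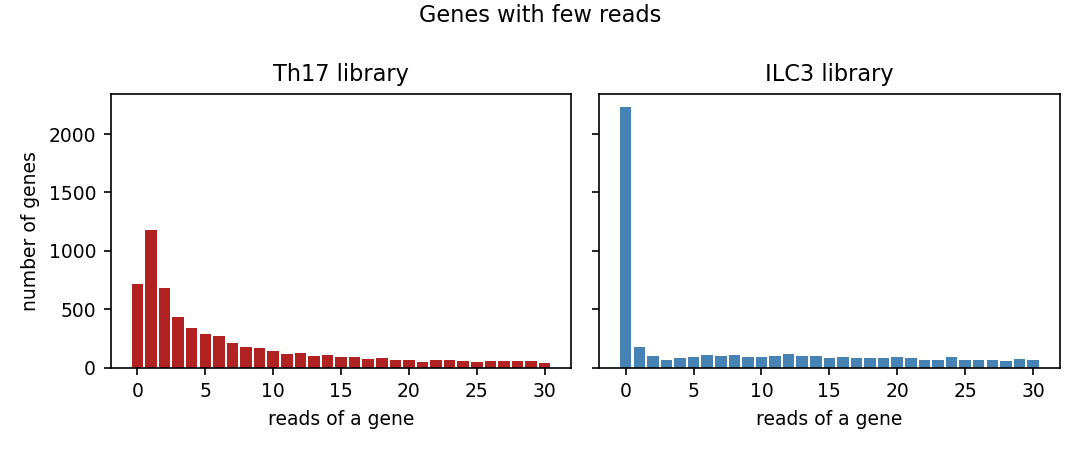
Number of genes (vertical axis) at each read number from 0 to 30 (horizontal axis) in the Th17 and the ILC3 library. Gene numbers fall from 1 read upward in Th17. ILC3 has 2235 genes at 0, 174 at 1 read, 98 at 2 and 65 at 3, and a nearly flat run after that.

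Across the 10 genes, Atf4 and its target genes went different ways. The Th17 library was higher for Phgdh, Asns, Psat1, Trib3 and Sesn2, and the Chac1 reads were all in Th17. Atf4 (1.46-fold) and Ddit3 (1.74-fold) were higher in the ILC3 library, both by less than 2-fold. Among the 10431 genes that reached 100 normalized counts, 25.0% had a lower log2(Th17/ILC3) than Atf4 and 19.3% a lower one than Ddit3. Psph (1.37-fold higher in Th17) and Shmt2 (1.17-fold) differed less. The minimum of 100 was reached by 9 of the 10 genes and not by Chac1. Of the 10 genes, 4 had a large difference (Trib3, Asns, Phgdh and Psat1), higher in Th17, against 6.4% of the 10431 genes that reached 100, and 0 were higher in ILC3, against 8.39%. At 2-fold, Sesn2 joined them, so 5 were higher in Th17 against 16.2% of genes, and 0 were higher in ILC3 against 16%. Because the 10 genes were chosen with earlier results of these data known, these shares describe them and test no excess. Centred on 142 constitutive genes, which shifts log2(Th17/ILC3) by 0.46, 2 of the 10 genes (Asns and Phgdh) kept a large difference. Trib3 kept a log2 ratio of 6.49 but dropped below the minimum of 100 normalized counts. The split over all genes went from 668 higher in Th17 and 875 in ILC3 to 467 and 1188. The median log2(Th17/ILC3) was 1.72 over the 10 genes and 0.02 over the 13719 genes with a mean of at least 10 normalized counts. In the authors' deposited table, whose p-values rest on 1 library a group, 306 genes had an adjusted p under 0.05 and 0 of the 10 did.

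**Figure D2:**
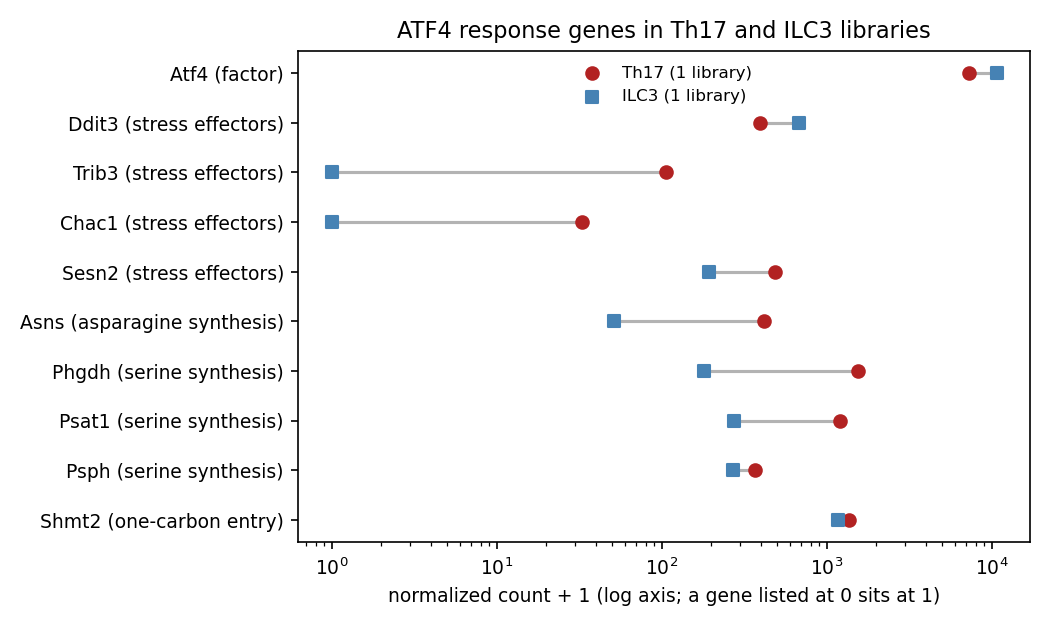
Normalized count plus 1 (log axis) of each of the 10 genes in the Th17 library (circles) and the ILC3 library (squares), 1 library each, grouped by role. Atf4 (7339 and 10723) and Ddit3 (392 and 680) lie further right in ILC3, and Trib3 and Chac1 sit at the left edge in ILC3 because they are listed at 0 there.

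The factor itself was abundant in both libraries. Atf4 stood at 7339 normalized counts (6241 reads) in Th17 against 10723 (12609 reads) in ILC3. It was 1.46-fold higher in ILC3, with an interval of the ratio of 1.42 to 1.51. Per kilobase of annotated exon, Atf4 was at 3112 in Th17 against 4547 in ILC3, the highest of the 10 genes in both libraries. The genes next to it in that order were Phgdh (622 per kilobase) and Shmt2 (442) in Th17, and Ddit3 (397) and Shmt2 (379) in ILC3. Among the genes of the companion lists described further on, those whose log2 ratio lay nearest to that of Atf4 were Farsb, Dnajc3 and Atf6b, at 1.45-, 1.45- and 1.48-fold higher in ILC3. With 1 library a group that likeness is a likeness of a single ratio.

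Among the stress effectors, Ddit3 followed Atf4 in direction and the other 3 did not. Ddit3 encodes CHOP, a bZIP factor that promotes cell death under prolonged stress. It stood at 392 normalized counts in Th17 against 680 in ILC3, and was 1.74-fold higher in ILC3 (1.53 to 1.98). Its annotated exons share 68 bases with Mars on the other strand, so reads there cannot be told apart unless counting used strand, which the sources used here do not state. Sesn2 encodes sestrin 2, which restrains mTORC1 when leucine is short. Its values were 486 in Th17 against 193 in ILC3, 2.52-fold higher in Th17 (2.13 to 2.97).

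Trib3 and Chac1 were listed at 0 in the ILC3 library. Trib3 encodes a pseudokinase that binds ATF4 and CHOP and dampens the response. It had 105 normalized counts (89 reads) in Th17, just above the minimum of 100. That was 41-fold the 2.55 normalized counts of the chosen floor of 3 reads in ILC3. The lower limit of its exact interval was 32.7-fold. Chac1 encodes an enzyme that breaks down glutathione. It had 31.7 normalized counts (27 reads) in Th17, 12.4-fold that floor, and the lower limit of its exact interval was 9.44-fold. Among the 602 other genes with 0.8 to 1.2 times the Th17 reads of Trib3, 3.65% were listed at 0 in ILC3, and among the 586 such genes for Chac1, 11.4% were.

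With ILC3 reads grouped by 7, the lower limit of the ratio was 4.67-fold for Trib3 and 1.35-fold for Chac1. With groups of 10 reads, added after seeing the data, the limits were 3.27 and 0.944, so for Chac1 a difference was no longer detectable at this depth.

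Asns encodes asparagine synthetase, which makes asparagine from aspartate and glutamine. It stood at 419 normalized counts (356 reads) in Th17 against 50.2 (59 reads) in ILC3. It was 8.34-fold higher in Th17 (6.32 to 11.2, or 4.26 to 18.98 with grouped ILC3 reads). Its relative Asnsd1, which carries a similar synthetase domain, was at 816 in Th17 against 508 in ILC3, 1.61-fold higher in Th17 (1.44 to 1.8).

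The 3 enzymes that make serine from the glycolytic intermediate 3-phosphoglycerate differed in size of effect, and the size declined along the pathway. Phgdh, the dehydrogenase of the first step, stood at 1546 normalized counts in Th17 against 179 in ILC3, 8.62-fold higher in Th17 (7.45 to 10.01). Psat1, the transaminase of the middle step, stood at 1199 in Th17 against 275 in ILC3, 4.37-fold higher in Th17 (3.85 to 4.96). Psph, the phosphatase of the last step, had 368 and 270, 1.37-fold higher in Th17 (1.16 to 1.6), a direction that turned when centred on the constitutive genes. The single-read intervals of these 3 ratios did not overlap. With ILC3 reads grouped by 10 those of Phgdh (5.62 to 13.95) and Psat1 (3.08 to 6.41) did, and with groups of 7 the Psph interval, 0.997 to 1.91, included equal values. Proliferation genes were higher in the same library as Phgdh and Psat1. All 20 were at least 2-fold higher in Th17, 13 with a large difference (median 3.12), and Ccna2 was at 0 in ILC3. Over all 13719 measured genes, 1691 were at least 2-fold higher in Th17, 668 with a large difference. The part of proliferation genes in the levels of the serine enzymes was not tested. Together the 3 serine genes took 0.0151% of the Th17 reads (exact interval 0.0145% to 0.0157%) and 0.00378% of the ILC3 reads (0.00353% to 0.00404%). Psph shares 452 exon bases with Cct6a on the other strand, and Phgdh has a processed pseudogene, so part of their reads may be uncertain. Pseudogenes of the other genes were not examined. In the authors' deposited table Phgdh had the lowest p of the 10 genes, 0.00953, with an adjusted p of 0.308.

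Shmt2, the mitochondrial enzyme that splits serine to glycine and a folate-bound carbon unit, was close to equal in the libraries. It stood at 1375 normalized counts in Th17 against 1178 in ILC3, 1.17-fold higher in Th17 (1.08 to 1.26), and this direction too turned under that centring. Its exons share 32 bases with Ndufa4l2 on the other strand. The cytosolic relative Shmt1 stood at 298 in Th17 against 17.9 in ILC3, 16.7-fold higher in Th17 (10.7 to 27.4). All 10 single-read intervals excluded equal values, as did those of 72.2% of all genes. With ILC3 reads grouped by 7, 9 of the 10 did, against 54.1% of all genes. With groups of 10, 7 of the 10 did, and no share over all genes was computed for that grouping.

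**Figure D3:**
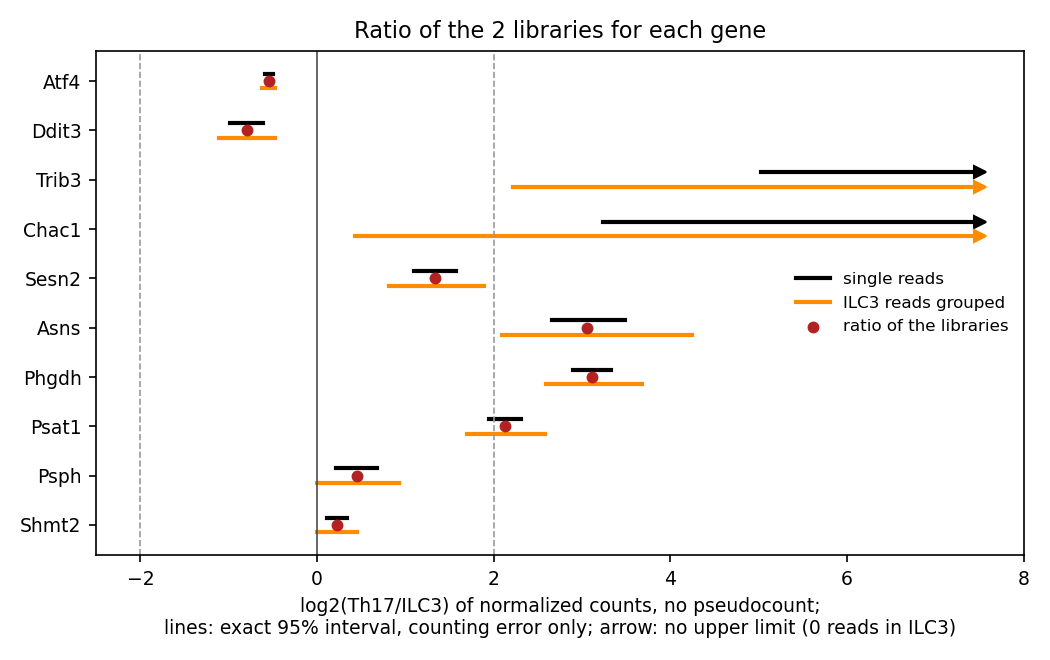
Log2 of the Th17 over ILC3 ratio of normalized counts without a pseudocount for each gene (circles; none for Trib3 and Chac1, listed at 0 in ILC3), with exact 95% intervals from single reads (upper, black) and with ILC3 reads grouped by 7 (lower, orange). Dashed lines mark 4-fold. Atf4 and Ddit3 lie left of 0, Phgdh and Asns lie right of the 4-fold line with both intervals, and Psph and Shmt2 lie next to 0, on its other side when centred on the constitutive genes.

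Genes that handle the carbon unit after Shmt2 were compared next. Of 23 measured genes of one-carbon metabolism, 4 had a large difference higher in Th17, 1 had one higher in ILC3, and the median log2 ratio was 0.53. The 4 were Shmt1, Mthfd2, Mthfd1l and Ahcy, of which Mthfd1l and Ahcy were named after their values were seen. Mthfd2, the mitochondrial dehydrogenase and cyclohydrolase that follows Shmt2 and a known ATF4 target, stood at 1218 normalized counts in Th17 against 227 in ILC3 (5.37-fold, 4.69 to 6.16). Mthfd1l, which releases formate in mitochondria, had 1059 and 259 (4.1-fold, 3.59 to 4.68), and Ahcy, which clears S-adenosylhomocysteine, had 3422 and 853 (4.01-fold, 3.73 to 4.31). Aldh1l1, which oxidises the carbon unit to carbon dioxide, went the other way, with 1 read in Th17 and 153 normalized counts in ILC3. Mat2a, which makes S-adenosylmethionine and was the most highly expressed member without a large difference, was 1.26-fold higher in Th17.

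No gene of the switch upstream of ATF4 had a large difference. Of 17 measured genes for eIF2 kinases, eIF2 and its exchange factor and regulators, 4 were at least 2-fold higher in Th17 and 1 in ILC3. Over all 13719 measured genes, 1691 and 1673 were. The median of the list was 0.40, or -0.06 centred on the constitutive genes. The 4 were Eif2ak3, Eif2b1, Eif2s1 and Eif2b5, named after their values were seen. Eif2ak3, encoding PERK, stood at 2318 normalized counts in Th17 against 789 in ILC3 (2.94-fold, 2.71 to 3.18), whereas Eif2ak4, encoding GCN2, had 519 and 591. The gene higher in ILC3 was Ppp1r15a, encoding GADD34, which directs the dephosphorylation of eIF2 and is itself induced by the response. It stood at 6309 in Th17 against 16706 in ILC3 (2.65-fold, 2.57 to 2.73). Its constitutive relative Ppp1r15b had 7149 and 4648, 1.54-fold higher in Th17.

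The list of bZIP partners holds genes for factors that pair with or follow ATF4, all bZIP factors except Nupr1. Of its 10 measured genes, 5 were higher in ILC3 by a large difference and 0 in Th17 (median -1.46). Over all 13719 measured genes, 875 and 668 were. By any amount, 7 of the list were higher in ILC3 and 3 in Th17, beside 6759 and 6959 of all measured genes. Atf3, a repressor induced by ATF4 and by many other stimuli, stood at 1489 normalized counts in Th17 against 25438 in ILC3 (17.1-fold, 16.2 to 18.1). Cebpd was 15.1-fold and Nupr1 5.89-fold higher in ILC3, and Cebpb and Jdp2, named after their values were seen, 4.29-fold and 4.24-fold. Cebpg, the partner of ATF4 at amino acid response elements, stood at 1024 in Th17 against 516 in ILC3, 1.98-fold higher in Th17. Immediate early genes, which respond within minutes to stimulation and to tissue dissociation, were higher in the same library. Of 20, 7 had a large difference and all 7 were higher in ILC3 (median -1.42). Over all 13719 measured genes, 875 had one higher in ILC3. The 20 genes took 1.09% of the Th17 reads and 4.75% of the ILC3 reads. Their part in the levels of Atf3, Atf4, Ddit3 and Ppp1r15a was not tested.

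Of 35 measured further ATF4 targets, 5 were higher in Th17 by a large difference and 2 were higher in ILC3, beside 668 and 875 of the 13719 measured genes. Their median was 0.65, or 0.19 centred on the constitutive genes, where that of all genes was -0.45. Those higher in Th17 were Stc2, Slc7a5, Gpt2, Ddit4 and Mthfd2, of which Gpt2 and Ddit4 were named after their values were seen. Slc7a5, the large neutral amino acid transporter that carries leucine, stood at 2726 normalized counts in Th17 against 243 in ILC3 (11.2-fold, 9.91 to 12.7). Ddit4, whose product REDD1 restrains mTORC1, had 2195 and 405 (5.42-fold, 4.9 to 6.01). Stc2, encoding stanniocalcin 2, was 15.4-fold higher in Th17 (9.47 to 26.5), and Gpt2, the mitochondrial alanine transaminase, 6.65-fold (4.91 to 9.14). The 2 higher in ILC3 were Atf3 and Nupr1, which the bZIP list also holds, as the one-carbon list holds Mthfd2. Sqstm1, an autophagy receptor gene, was 2.78-fold higher in ILC3, and the glutamine transporter gene Slc38a2 1.52-fold. By any amount, 24 of the 35 were higher in Th17 and 11 in ILC3, beside 6959 and 6759 of the 13719 measured genes.

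Of 20 cytosolic aminoacyl-tRNA synthetase genes, 0 had a large difference, 5 were at least 2-fold higher in Th17 and 1 in ILC3. Over all 13719 measured genes, 1691 and 1673 were at least 2-fold higher. The median of the list was 0.40, or -0.06 centred on the constitutive genes. Eprs, for glutamate and proline, stood at 20108 normalized counts in Th17 against 8175 in ILC3 (2.46-fold), and Vars, for valine, had 3036 and 8375, 2.76-fold higher in ILC3. The other 4 at least 2-fold higher in Th17 were Gars, Aars, Sars and Iars, named after their values were seen.

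**Figure D4:**
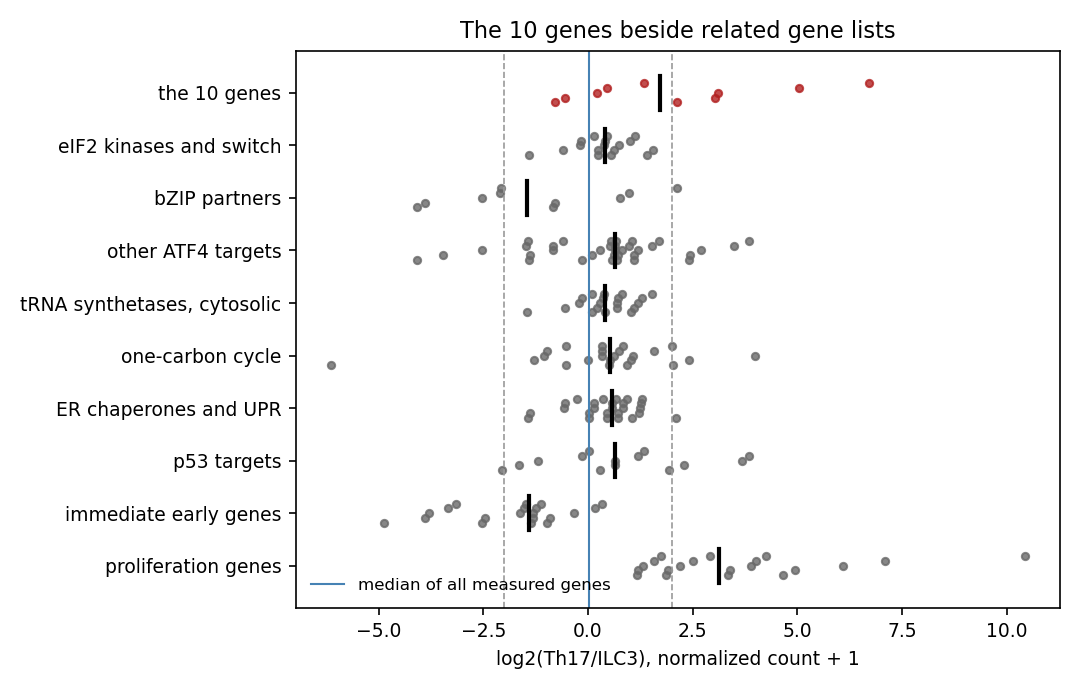
Log2(Th17/ILC3) on the normalized count + 1 scale for the 10 genes and for the measured members of 9 related lists (1 point a gene; vertical bars are list medians; dashed lines mark 4-fold; the blue line is the median of all measured genes, 0.02). The 10 genes span both sides of 0, the bZIP and immediate early lists lie mostly left, and the proliferation list lies wholly right.

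Relatives outside the response were set beside the 10 genes, family by family. Of 14, Shmt1 and Trib2 were higher in Th17 by a large difference and Sesn1 in ILC3. Over all 13719 measured genes, 668 and 875 were. The median of the relatives was 0.39, or -0.07 centred on the constitutive genes. Sesn1, a sestrin gene under p53 control, stood at 730 normalized counts in Th17 against 3033 in ILC3, with ILC3 4.15-fold higher (3.81 to 4.53), opposite in direction to Sesn2. Sesn3, a sestrin gene under FOXO control, had 2101 and 726, 2.89-fold higher in Th17 (2.67 to 3.14). Of the tribbles genes, Trib2 had 9866 and 2419, 4.08-fold higher in Th17 (3.91 to 4.26), in the direction of Trib3, and Trib1 had 2134 and 2298. Chac2, which degrades glutathione at a slow constant rate, had 34.1 normalized counts (29 reads) in Th17 and 3 reads in ILC3 (13.4-fold, 4.14 to 68.6). Like Chac1 it was low, and in ILC3 both lay at read numbers where the libraries were spread differently. The bZIP genes Atf1, Atf2, Atf6, Atf6b, Atf7 and Creb1 differed by 1.02- to 1.48-fold in either direction, and Cebpz was 1.55-fold higher in Th17.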

How the data were processed

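The deposited table held normalized counts of 17048 rows, which per the file headers are the authors' means for each group, here of 1 library each. Per the file headers these signal values are counts normalized by the authors, and their steps show 1 size factor per library. The submitters' processing notes name TopHat2 2.0.6, DESeq 1.12.0, HTSeq 0.5.4p3 and build mm8; settings and the use of strand are not stated in the sources used here. Per the labels' protocols, 1 ug of total RNA entered an Illumina TruSeq preparation. The authors' deposited p-values, adjusted p-values and fold changes (a ratio, Th17 over ILC3) come from 1 library a group and are quoted only as theirs. A total of 24 rows whose names had become calendar dates were left out.

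Dividing by the lowest value above 0 (1.18 in Th17, 0.85 in ILC3) gave whole reads for 100% of values, within 0.001 reads. With 1 library a group no count model was fitted and no p was computed. Exact 95% intervals of Th17/ILC3, conditional on the reads of both libraries (Clopper-Pearson), left out a ratio of 1 for 12296 of 17024 genes. What they compare is a pair of libraries, and PCR copies of a molecule count as separate reads in them. The floor was 3 reads per library. Log2 ratios used a pseudocount of 1, which understates differences of low genes; folds did not. List members were measured at a mean of at least 10.

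The 10 genes and the 16 companion lists were chosen with earlier results of these data known. Of 259 companion genes, 8 had no row and were not analysed. Named were the 10 genes, both reporter genes, the family relatives, and in each list up to 3 members with the largest of the large differences and up to 2 of the most highly expressed others; lists of other cell types are given by counts. Some genes that this rule would name are not reported here. Exon lengths and overlaps are from GENCODE M21 and promoters from RefSeq (GRCm38.p6), in which all 10 genes matched. The calculations were tested on simulated counts with counting error only. These held no replicate spread and no copied ILC3 reads, so they cannot check the intervals against either. Alternatives were 4 other scalings, other pseudocounts and minimums, and grouped ILC3 reads. Software was Python 3.11.15 with scipy 1.17.1, numpy 2.4.6, matplotlib 3.10.9 and pandas 2.3.3.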

Additional observations from a re-analysis of the deposited data

How the results depend on the processing

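No paired analysis was possible because each group held 1 library, and for the same reason no replicate could be left out. Scaling to total reads, recomputed size factors and the upper quartile left the 4 large and 5 moderate differences in place. Centring on 142 constitutive genes (proteasome, respiratory complex I, mitochondrial ribosome), whose median was 1.38-fold higher in Th17 (a shift of 0.46 on the log2 scale), left 2 of the 10 genes with a large difference higher in Th17 (Asns and Phgdh) and 3 at 2-fold (with Psat1). Over all genes this centring left 467 and 967. Under it Trib3 dropped below 100 normalized counts, and 2 genes (Atf4 and Ddit3) became at least 2-fold higher in ILC3. Over all genes the number at least 2-fold higher in ILC3 rose from 1673 to 2770. Psph (-0.0146) and Shmt2 (-0.24) changed sign under this centring. Under it the medians of eIF2 switch (-0.0613), tRNA synthetase (-0.0641) and family relative genes (-0.0747) also changed sign, and that of all genes became -0.45; it was -0.0923 scaled to totals and -0.0478 by upper quartile. A minimum of 1000 normalized counts left 2 genes (Phgdh and Psat1) higher in Th17 at 4-fold and 2 at 2-fold, since fewer genes reach it. Over all genes it left 219 and 662. A minimum of 10 added Chac1, with 1273 at 4-fold and 2609 at 2-fold higher in Th17 over all genes. The log2 ratio ranged from 3.52 to 10.03 for Trib3 and from 2.06 to 8.32 for Chac1 over the scalings and pseudocounts, because both are at 0 in ILC3, and from -1.01 to -0.55 for Atf4. Depth limits Trib3 and Chac1, and with ILC3 reads grouped by 15 the lower limits of their ratios were 2.18 and 0.63.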

Other observations

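The other branches of the unfolded protein response, which act through ATF6 and XBP1 on chaperones of the endoplasmic reticulum, were measured beside the ATF4 genes. Of 26 genes, 1 had a large difference, Sdf2l1, 4.28-fold higher in Th17 (3.75 to 4.88). The median log2 ratio was 0.58, or 0.12 centred on the constitutive genes. Hspa5, the chaperone BiP, was nearly equal, at 46907 normalized counts in Th17 against 42785 in ILC3, and Calr, encoding calreticulin, was 2.41-fold higher in Th17. Herpud1, a target of both ATF4 and ATF6 named after its values were seen, was the 1 gene with at least 100 normalized counts that was at least 2-fold higher in ILC3, at 3355 in Th17 against 9034 in ILC3 (2.69-fold, 2.58 to 2.81).

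Targets of p53, which also controls sestrin genes, went both ways. Of 14 genes, 3 had a large difference higher in Th17, namely Pmaip1 (14.6-fold, 12.8 to 16.7), Perp (13.5-fold) and Fas (5.06-fold). Sesn1 had one higher in ILC3. Over all 13719 measured genes, 668 had one higher in Th17 and 875 in ILC3. Cdkn1a stood at 7780 in Th17 against 8577 in ILC3, and Trp53inp1 was 3.13-fold higher in ILC3. Pmaip1, encoding the death protein NOXA, is also an ATF4 target, but it was counted in the p53 list and not among the 35 further ATF4 targets.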
